A study of Mus musculus with 12 samples.

Results

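The genes described here are 10 chaperones and co-chaperones of the endoplasmic reticulum (ER) lumen and membrane: Hyou1, Sil1, Manf, Dnajb9, Dnajb11, Dnajc3, Dnajc10, Sdf2l1, Calr and Canx. They were chosen by name, with earlier results of these data known. Each of the 10 symbols matched 1 locus among the 27109 loci of the table. The chaperones Hspa5 (BiP) and Hsp90b1 (GRP94) were left out because their stressed values are missing, as described below. RNA came from livers of C57BL/6 mice that were wild type or carried the LsATF4-/- genotype, a liver-specific knockout of the stress transcription factor gene Atf4. An intraperitoneal injection delivered either 1 mg/kg tunicamycin or its vehicle, 0.3% DMSO, and RNA was taken from the liver after 6 h. Each genotype was studied under both injections, with 3 libraries in each of the 4 groups and 12 in all. The sources used here do not name the Cre driver of the knockout, the deleted exons, or the age and sex of the mice.

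Proteins that enter the secretory pathway fold in the ER with the help of BiP, an ATP-driven chaperone. J proteins bring clients to BiP and trigger its ATPase, nucleotide exchange factors reset it, and the lectins calreticulin and calnexin hold glycoproteins by their trimmed sugars. Tunicamycin blocks N-linked glycosylation, so that unfolded proteins collect in the ER and the sensors IRE1, ATF6 and PERK raise the synthesis of folding proteins. ATF4 acts downstream of PERK, whereas the ER stress response element (ERSE), first described in promoters of ER chaperones, is known as a site of ATF6 acting with the factor NF-Y. Hepatocytes secrete most plasma proteins and so carry a heavy folding load.

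Promoter windows came from RefSeq on GRCm38.p6 and reached from 250 bases before to 50 bases after the gene start. They were used for 7 of the 10 genes, and Hyou1, Manf and Sil1 were not among these. The elements were searched on both strands: ERSE (CCAAT, any 9 bases, then CCACG), ERSE-II (ATTGG, any base, then CCACG), the UPR element core TGACGTG and the C/EBP-ATF composite element as TGATG, any base, then AA. The core CCACG, which also ends ERSE and ERSE-II, was searched by itself. A full ERSE lay in the windows of Calr, Canx and Dnajc3, 3 of 7, against 39 of all 32851 windows (0.119%). An ERSE-II lay in the window of Dnajb11, against 12 of all windows (0.0365%). The UPR element core was in 0 of 7 (2.01% of all windows) and the composite element in 0 of 7 (3.97% of all windows). The bare core was present in 6 of 7, against 32.8% of all windows, with Dnajc10 as the exception. Among the other ER folding genes listed for comparison, 34 had a window in use and 4 of these held ERSE or ERSE-II: Hspa5, Hsp90b1, Calr4 and Creld2. None of the 10 windows in use for cytosolic and mitochondrial chaperones held one. A match describes letters only, and the absence of one says nothing of any factor. Since ERSE was first described in promoters of ER chaperones, its matches in such genes are not an independent result.

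Stretches of the windows that hold a full element are printed first, 5′ to 3′ on the gene's strand: the 250 bases before the gene start, or the first 270 bases of the window for Dnajb11, whose element lies after it, while the search covered the whole window. They are shown with ERSE or ERSE-II in capitals; those of Sdf2l1, the gene with the largest response, and Dnajb9, the gene called between genotypes with DMSO, follow with the bare core in capitals on either strand.
Calr, chr8:84846932-84847181, minus strand: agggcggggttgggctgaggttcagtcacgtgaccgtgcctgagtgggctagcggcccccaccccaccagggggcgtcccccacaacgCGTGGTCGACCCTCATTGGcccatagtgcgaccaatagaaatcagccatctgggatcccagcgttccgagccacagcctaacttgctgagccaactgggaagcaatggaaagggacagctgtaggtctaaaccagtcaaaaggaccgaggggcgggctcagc
Canx, chr11:50325674-50325923, minus strand: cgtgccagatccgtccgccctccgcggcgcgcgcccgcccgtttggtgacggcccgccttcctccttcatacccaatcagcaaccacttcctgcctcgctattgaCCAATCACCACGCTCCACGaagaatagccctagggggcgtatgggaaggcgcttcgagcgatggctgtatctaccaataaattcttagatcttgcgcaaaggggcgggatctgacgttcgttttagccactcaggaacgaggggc
Dnajc3, chr14:118937682-118937931, plus strand: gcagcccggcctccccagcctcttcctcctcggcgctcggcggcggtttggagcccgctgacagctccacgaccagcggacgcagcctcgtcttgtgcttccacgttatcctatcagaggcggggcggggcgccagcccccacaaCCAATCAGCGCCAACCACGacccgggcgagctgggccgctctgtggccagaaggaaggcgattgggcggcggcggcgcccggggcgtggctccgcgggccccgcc
Dnajb11, chr16:22857595-22857864, plus strand: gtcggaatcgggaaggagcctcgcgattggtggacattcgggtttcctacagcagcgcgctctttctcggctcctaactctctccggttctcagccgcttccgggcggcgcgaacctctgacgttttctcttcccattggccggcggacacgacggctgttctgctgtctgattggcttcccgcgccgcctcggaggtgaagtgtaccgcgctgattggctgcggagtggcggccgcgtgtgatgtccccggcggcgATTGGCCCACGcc
Sdf2l1, chr16:17132384-17132633, minus strand: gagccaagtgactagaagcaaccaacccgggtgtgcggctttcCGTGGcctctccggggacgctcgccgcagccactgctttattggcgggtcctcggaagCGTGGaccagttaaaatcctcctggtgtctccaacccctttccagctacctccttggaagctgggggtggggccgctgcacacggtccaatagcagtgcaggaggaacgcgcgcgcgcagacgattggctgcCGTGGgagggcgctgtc
Dnajb9, chr12:44210069-44210318, minus strand: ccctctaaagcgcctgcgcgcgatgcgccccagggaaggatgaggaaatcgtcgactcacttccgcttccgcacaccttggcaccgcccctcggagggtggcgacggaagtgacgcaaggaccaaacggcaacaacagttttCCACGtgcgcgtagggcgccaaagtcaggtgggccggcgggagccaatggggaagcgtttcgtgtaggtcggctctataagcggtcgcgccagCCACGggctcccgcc
Counted from 1 at the window's 5′ end, the 3 full ERSE copies lay between bases 89 and 164, before the gene start, and the ERSE-II of Dnajb11 lay at bases 258 to 268, just after it. Calr carries its ERSE on the opposite strand, whereas those of Canx and Dnajc3 read along the gene.

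**Figure D1:**
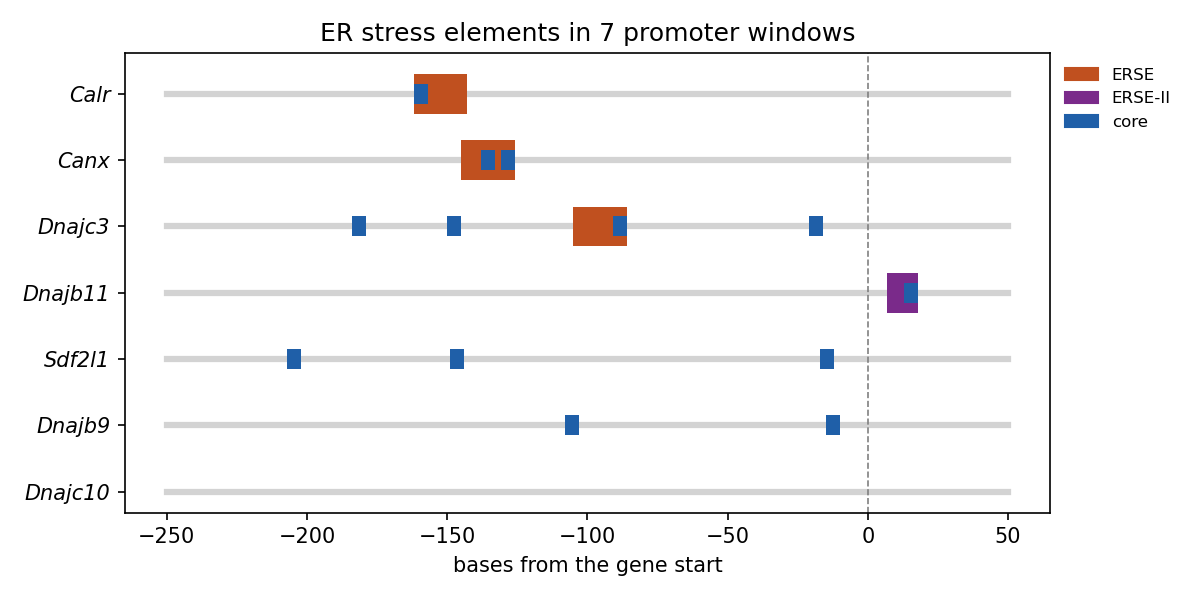
Positions of ERSE, ERSE-II and the bare core on either strand in the 7 promoter windows; the x axis is the distance in bases from the gene start, and grey lines mark the searched windows. Full elements stand in Calr, Canx, Dnajc3 and Dnajb11, and Dnajc10 holds none of the 3.

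The authors' deposited table holds FPKM (fragment counts scaled by transcript length and library size), as 1 value per locus for each group, so no spread between the 3 libraries of a group can be given and their depth is unknown. A gene was called, and is said to have risen or fallen, where the deposited q of Cuffdiff (the authors' test) was under 0.05; errors are standard errors (SE) rebuilt from its test statistic. The labels do not say in so many words that each library is a separate animal. The p-values can therefore not be taken to measure the spread between animals. Knockout livers with DMSO occupied lane 5 of the sequencer and the 9 remaining libraries lane 4, so any comparison with that group cannot be told apart from one of lanes. Atf4 lies in a locus merged with Cacna1i, at 46.9 and 356 FPKM in wild type and 22.8 and 114 FPKM in the knockout with DMSO and with tunicamycin in the authors' deposited table. Of 8 hepatocyte markers 7 were measured in every group, and albumin carries the flag HIDATA, Cuffdiff's mark for a locus with too many fragments, with a listed value of 0. The hepatocyte markers summed to 16038 FPKM with DMSO and 10058 with tunicamycin in wild type, and to 13343 and 8681 FPKM in the knockout, with 2 and 3 of the 7 called lower with tunicamycin and medians of -0.66 and -0.74 on the log2 scale. Hspa5 and Hsp90b1 carry the same flag in both tunicamycin groups and are listed at 0 there; with DMSO they stood at 409 and 398 FPKM in wild type and at 329 and 452 FPKM in the knockout, in the authors' deposited table. The knockout tunicamycin group also held transcripts of other tissues: 7 adrenal markers summed to 1109 FPKM there against 1.96 to 22.7 in the other groups, 7 skeletal muscle markers to 289 against 0.511 to 3.80, and 5 fat markers to 248 against 16.9 to 26.2. Every one of these 19 markers was above 1 FPKM in that group. Summed markers of liver endothelium were 110 FPKM with DMSO and 143 with tunicamycin in wild type. In the knockout they were 172 and 108 FPKM in the same order. With DMSO 7 of these 9 markers were called higher in the knockout and 0 lower, against 2.86% of all tested loci called either way. In the test of the difference between tunicamycin responses, described below, 6 of the 9 passed, against 1.01% of tested loci. Pancreatic acinar markers stayed under 1 FPKM in sum in each group. The part of these other cells in the values below was not tested, and in whole liver fewer cells of a type and less RNA per cell cannot be told apart.

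Unstressed livers already expressed all 10 genes. In wild type with DMSO the levels ran from 10.5 FPKM for Dnajc10 to 440 FPKM for Calr, with a median of 55.6, in the authors' deposited table. Calr held 44.3% of the summed FPKM of the 10 genes in that group, and Manf (121 FPKM) and Canx (118 FPKM) came next. At the low end stood Sdf2l1 with 29.0 FPKM and Sil1 with 38.8 FPKM. The 10 genes together made up 0.145% of all FPKM listed in wild type with DMSO and 0.180% in the knockout with DMSO. With tunicamycin the shares were 1.55% in wild type and 1.37% in the knockout. Since each level is 1 pooled value, whether neighbours in this order differ beyond the spread of libraries cannot be said.

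**Figure D2:**
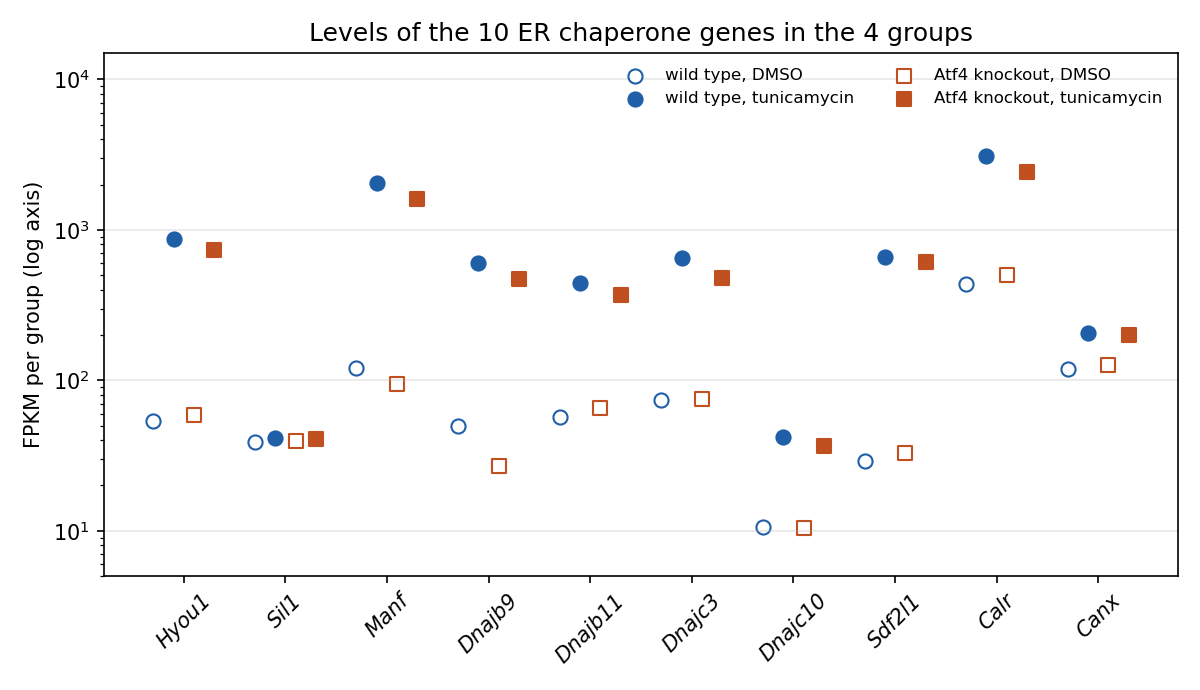
FPKM of each gene in the 4 groups on a log axis, 1 pooled value per group of 3 libraries; circles are wild type, squares are knockout, open symbols DMSO and filled symbols tunicamycin. Filled symbols stand well above open ones for each gene except Canx, where the gap is small, and Sil1. The 4 values of Sil1 lie between 38.8 and 41.5 FPKM.

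Tunicamycin raised 8 of the 10 genes in wild type and 8 of the 10 in the knockout, and 0 fell in either. Among all tested loci, 18.1% rose and 19.0% fell in wild type, and 18.1% rose and 14.8% fell in the knockout. The same 8 genes were called in both genotypes, and Sil1 and Dnajb11 were the ones not called. The median log2 change of the 10 was 3.05 in wild type and 2.58 in the knockout, against -0.02 and 0.01 over all tested loci. In wild type the folds ran from 1.07-fold for Sil1 to 22.8-fold for Sdf2l1.

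Of the nucleotide exchange factors of BiP, Hyou1 rose and Sil1 was not called. Hyou1, an Hsp110-type chaperone also called GRP170 (chr9:44187573-44200488 on mm9), stood at 53.7 FPKM with DMSO and 868 with tunicamycin in wild type, and at 58.7 and 734 in the knockout, in the authors' deposited table. That is a 16.2-fold rise in wild type (log2 4.01, SE 0.31) and a 12.5-fold rise in the knockout (log2 3.64, SE 0.30), both with the smallest q of the deposited table (0.000396). Sil1, the other exchange factor, stood at 38.8 and 41.5 FPKM in wild type and at 39.5 and 40.9 in the knockout in the authors' deposited table. The 4 Sil1 values lay between 38.8 and 41.5 FPKM, and the deposited log2 change was 0.10 in wild type (q 0.812, 95% interval -0.29 to 0.48) and 0.05 in the knockout (q 0.910, -0.33 to 0.44). Manf, a secreted protein that binds BiP and slows its release of nucleotide (chr9:106724223-106794326), went from 121 to 2037 FPKM in wild type and from 94.3 to 1609 in the knockout in the authors' deposited table. Its rises were 16.9-fold and 17.1-fold (deposited log2 4.08, SE 0.47, and 4.09, SE 0.47), the closest in value between genotypes among the 8 risen genes. The 95% interval of their log2 difference was wide, -1.30 to 1.33, so this closeness does not show equal responses. Manf shares its mapped interval with Vprbp and Rbm15b, which read 20.7 FPKM each in wild type with tunicamycin, far under Manf. In wild type with DMSO Vprbp read 8.70 and Rbm15b 2.16 FPKM. Neither rise was called in wild type (deposited log2 1.25, q 0.135, and 3.26, q 0.304). Whether the shared interval bears on the values of Manf was not tested.

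Of the 4 J proteins, Dnajb9, Dnajc3 and Dnajc10 rose in both genotypes. Dnajb9 (ERdj4), which feeds BiP and binds unfolded clients and the sensor IRE1 (chr12:45304161-45311091), stood at 49.9 and 605 FPKM in wild type and at 27.0 and 473 FPKM in the knockout with DMSO and tunicamycin, in the authors' deposited table. It was the one gene of the 8 called lower in the knockout before stress, and its rise was 12.1-fold in wild type (log2 3.60, SE 0.22) and 17.5-fold in the knockout (log2 4.13, SE 0.22) by the deposited values. Dnajc3 (p58IPK), a J protein that also holds misfolded chains (chr14:119337154-119380924), read 73.9 and 652 FPKM in wild type and 75.1 and 480 FPKM in the knockout, from the authors' deposited table. These are rises of 8.82-fold and 6.39-fold (deposited log2 3.14, SE 0.28, and 2.68, SE 0.27). Dnajc10 (ERdj5), a J protein with thioredoxin domains that reduces disulfides of clients bound for degradation (chr2:80155623-80194212), was the least abundant with DMSO at 10.5 FPKM in both genotypes, and read 41.8 FPKM in stressed wild type and 36.5 FPKM in the stressed knockout, from the authors' deposited table. Its rises of 3.97-fold and 3.49-fold (deposited log2 1.99 and 1.80, SE 0.19 and 0.20) were the smallest of the 3 called J proteins.

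Dnajb11 (ERdj3), which binds nascent clients and hands them to BiP, read 57.5 and 445 FPKM in wild type and 65.7 and 370 FPKM in the knockout in the authors' deposited table. Its fold was of the size seen for the called genes, 7.74-fold in wild type and 5.63-fold in the knockout, yet it was not called (deposited q 0.245 and 0.316). The SE rebuilt from the statistic was 5.20 in wild type, against 0.19 to 0.47 for the other 9 genes, and 1.77 when taken from the deposited p-value instead. In the table Dnajb11 shares its mapped interval (chr16:22857918-22899524 on mm9) with Ahsg, the gene of the abundant plasma protein fetuin-A, which read 9043 and 7267 FPKM in wild type and 7485 and 6379 FPKM in the knockout. Ahsg was not called either (deposited q 0.800 and 0.873 for tunicamycin). Whether the shared interval bears on the error of Dnajb11 was not tested.

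Sdf2l1, a partner of Dnajb11 that keeps clients from aggregating (chr16:17130227-17132476), had the largest fold of the 10. It stood at 29.0 and 662 FPKM in wild type and at 33.1 and 613 FPKM in the knockout in the authors' deposited table. From place 9 of 10 in wild type with DMSO it moved to place 4 with tunicamycin, after Calr, Manf and Hyou1. The rise was 22.8-fold in wild type (deposited log2 4.51, SE 0.22) and 18.5-fold in the knockout (4.21, SE 0.22).

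Both lectin chaperones rose in both genotypes. Calr, the soluble lectin (chr8:87365987-87370830), went from 440 to 3101 FPKM in wild type and from 498 to 2430 FPKM in the knockout in the authors' deposited table, the highest level of the 10 genes in each group. These are rises of 7.05-fold and 4.88-fold (deposited log2 2.82, SE 0.34, and 2.29, SE 0.33). Canx, its membrane-bound relative (chr11:50107459-50139175), went from 118 to 207 FPKM and from 126 to 201 FPKM in the same source. Canx had the smallest called rises, 1.75-fold (deposited q 0.00171, log2 0.81, SE 0.22) and 1.59-fold (q 0.0199, log2 0.67, SE 0.22), and dropped from place 3 to place 8 in wild type.

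**Figure D3:**
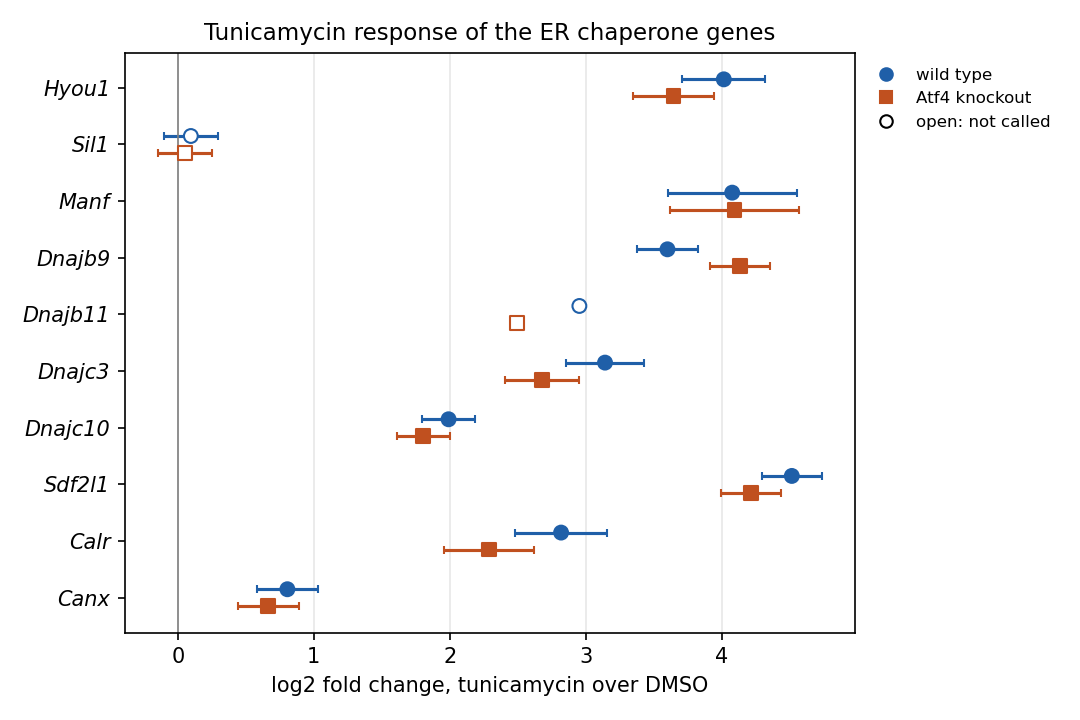
Deposited log2 fold change of tunicamycin over DMSO for each gene in wild type (circles) and knockout (squares), with bars of 1 SE rebuilt from the test statistic; open symbols were not called. No bar is drawn for Dnajb11, whose SE was 5.20 and 4.35. Sil1 lies within 0.10 of 0 in both genotypes, and the wild-type response is the larger one in 8 of 10 genes (9 of 10 relative to the medians of all tested loci).

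Without stress, Dnajb9 was lower in the knockout, and no other gene of the 10 was called. Dnajb9 read 49.9 FPKM in wild type and 27.0 FPKM in the knockout with DMSO, 54.1% of wild type, in the authors' deposited table (log2 -0.89, SE 0.19, q 0.000396). Of all tested loci 2.86% were called in this comparison and 1.47% fell, where genotype and lane cannot be told apart. Manf was the next lowest at 78.1% of wild type and was not called (deposited log2 -0.36, SE 0.44, q 0.656). The other 8 lay between 99.3% and 114% of wild type by the deposited FPKM, with q from 0.632 to 0.982. The Dnajb9 change was under 2-fold, and asking for that size as well would end its call.

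With tunicamycin the knockout values were below wild type at all 10 genes, or at 9 of 10 relative to the median of all tested loci, where Sil1 turns to 0.02, and none was called. Of all tested loci 5.92% were called in this comparison, and 56.1% had a value below wild type. The 10 genes ranged from 73.6% of wild type for Dnajc3 (deposited log2 -0.44, SE 0.33, q 0.383) to 98.6% for Sil1 (-0.02, SE 0.20, q 0.967), with a median log2 of -0.25 against -0.04 over all tested loci. By Cuffdiff 0 of 10 passed, and 0 of 10 had an unadjusted p under 0.05, against 1551 of all 14919 tested loci. The lowest of the 10 was 0.145 for Dnajb9. All libraries of this comparison share lane 4. The 10 values come from the same pair of groups and are not independent of each other. Values below wild type were not particular to them. All 7 tested hepatocyte markers (median log2 -0.25), all 9 endothelial markers (-0.34) and all 8 calnexin cycle enzymes and partners (-0.20) were below as well. Among chaperones of cytosol and mitochondria 4 of 15 were below, with a median of 0.02. Dnajb9, at 54.1% of wild type with DMSO, stood at 78.2% with tunicamycin (log2 -0.36, 95% interval -0.84 to 0.13) in the authors' deposited table. Calr stood at 78.4%, Manf at 79.0%, Hyou1 at 84.5% and Sdf2l1 at 92.6% of wild type. These intervals leave room for moderate differences, such as a log2 of -1.14 to 0.44 for Calr, so a miss of the threshold does not show equal levels. The summed FPKM of transcripts of other tissues, given above, was also highest in the knockout tunicamycin group.

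**Figure D4:**
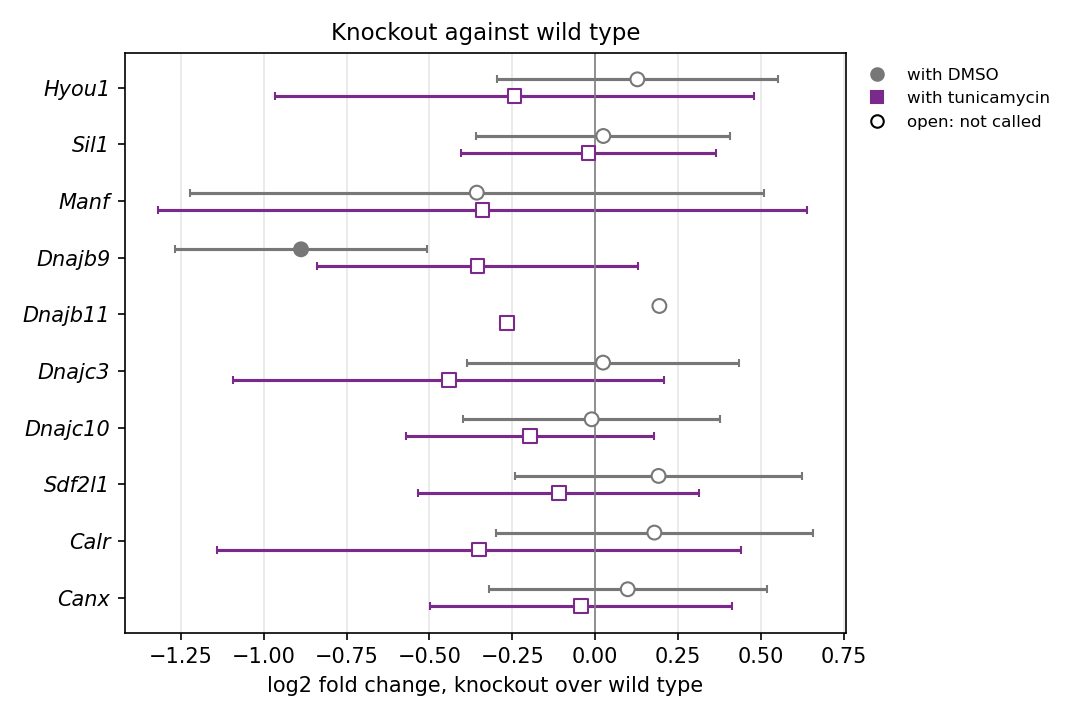
Deposited log2 fold change of knockout over wild type for each gene with DMSO (grey circles) and with tunicamycin (purple squares), with 95% intervals rebuilt from the test statistic; open symbols were not called. No interval is drawn for Dnajb11, whose SE was 6.39 and 2.17. The filled symbol is Dnajb9 with DMSO at -0.89, and each square lies left of 0 (all but Sil1 relative to the median of all tested loci).

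Whether the knockout and wild type differ in their tunicamycin response was tested at 14510 loci, of which 1.01% passed at an adjusted p under 0.05 (normal test on the deposited changes, Benjamini-Hochberg). None of the 10 genes passed, and 0 of 10 had an unadjusted p under 0.05, against 764 of the 14510 loci. At such shares 0 of 10 does not set these genes apart. The knockout change was the lower one, and thus the smaller rise, at 8 of 10, and it was the higher one at Dnajb9 and Manf; it was the lower one, falls included, at 45.6% of the tested loci. With each response taken relative to the median of its comparison, Manf turns from 0.02 to -0.02 and 9 of 10 are lower. Dnajb9 had the largest gap and the lowest unadjusted p: its log2 response was higher in the knockout by 0.53 (SE 0.31, 95% interval -0.08 to 1.15, p 0.0907, adjusted p 1.00). Calr had the largest gap the other way, -0.53 (SE 0.47, interval -1.46 to 0.40, adjusted p 1.00 in the same test). Sil1 (-0.04, interval -0.59 to 0.50) and Dnajc10 (-0.19, interval -0.73 to 0.35) had the narrowest intervals on this log2 scale. Lane cannot be told apart from group here either, since knockout with DMSO enters the difference.

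The other tested lists of ER folding genes, Hspa5 and Hsp90b1 having no value under tunicamycin, had lower medians than the 10 chaperones in wild type with tunicamycin. Their counts stand against 18.1% of all tested loci that rose and 19.0% that fell. The 10 genes and these lists were chosen with earlier results of these data known. The order of their medians is thus not an independent result. Of 8 calnexin cycle enzymes and partners 7 rose, with a median log2 of 1.29. The glucosyltransferases that return unfolded glycoproteins to the cycle were among them, Uggt2 from 0.984 to 21.1 FPKM (log2 4.42) and Uggt1 from 17.0 to 60.9 FPKM (log2 1.84), as was the oxidoreductase Pdia3, which works with both lectins (log2 2.65), in the authors' deposited table. Client-specific and other factors had 6 higher of 11. Lower were 2 of the 11, a share near the 19.0% of all tested loci that fell. Creld2, an ER protein known to be induced by ER stress, went from 35.6 to 2572 FPKM (log2 6.17), and Mesdc2, which serves LDL receptor relatives, had a log2 change of 1.28, as had Erp29 (1.27), in the authors' deposited table. The 2 that fell were Cnpy4 (-1.22) and the membrane sorting factor Bcap31 (-0.93) in that table.

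Of 8 ER prolyl isomerases 3 rose, namely Fkbp11 (log2 3.57), Fkbp14 (1.86) and the cyclophilin Ppib (1.15) of the authors' deposited table, and the list median was 0.40. Of 8 other ER J proteins and BiP regulators 4 rose, led by Ficd, which attaches AMP to BiP (log2 2.34 in the authors' deposited table), with Dnajc25 at 0.76 and Dnajc1 at 0.68. None of the closest relatives of the 10 was called: Sdf2, the relative of Sdf2l1, read 29.6 and 32.6 FPKM in wild type (deposited log2 0.14, q 0.708), and Cdnf, the relative of Manf, read 0.212 and 0.272 FPKM and was not tested. The testis calreticulin Calr3 (1.40 and 0.777 FPKM, deposited q 0.170) was not called, and Calr4 and Clgn were under 0.01 FPKM in both wild-type groups. Chaperones of cytosol and mitochondria had 1 higher and 5 lower of 15, against the same 18.1% and 19.0% of all tested loci, with a median of -0.06. The mitochondrial Hsp70 Hspa9 rose (0.98) and Hsp90aa1 (-1.28), Hsp90ab1 (-0.92) and Hspa8 (-0.91) fell, by the authors' deposited table.

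Among knockout livers, where 18.1% of all tested loci rose and 14.8% fell, 6 of 8 calnexin cycle genes, 3 of 8 prolyl isomerases and 3 of 8 other J proteins rose and none of them fell. Client-specific factors had 6 higher and 1 lower of 11. Chaperones of cytosol and mitochondria had 2 higher and 2 lower of 15, with a median of 0.12. By genotype, 5.92% of all tested loci were called with tunicamycin and 2.86% with DMSO. The calls among these lists were the following. With tunicamycin Uggt2 (log2 -0.59, q 0.0180) and Cnpy2 (-0.57, q 0.0162) fell, and Hsp90aa1 rose (0.53, q 0.0339), in knockout against wild type by the deposited values. With DMSO Hspa8, the constitutive cytosolic Hsp70, fell from 143 to 81.1 FPKM (deposited log2 -0.82, q 0.000396), a change of the size of that of Dnajb9. None of the listed folding genes passed the test of the difference between responses.

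**Figure D5:**
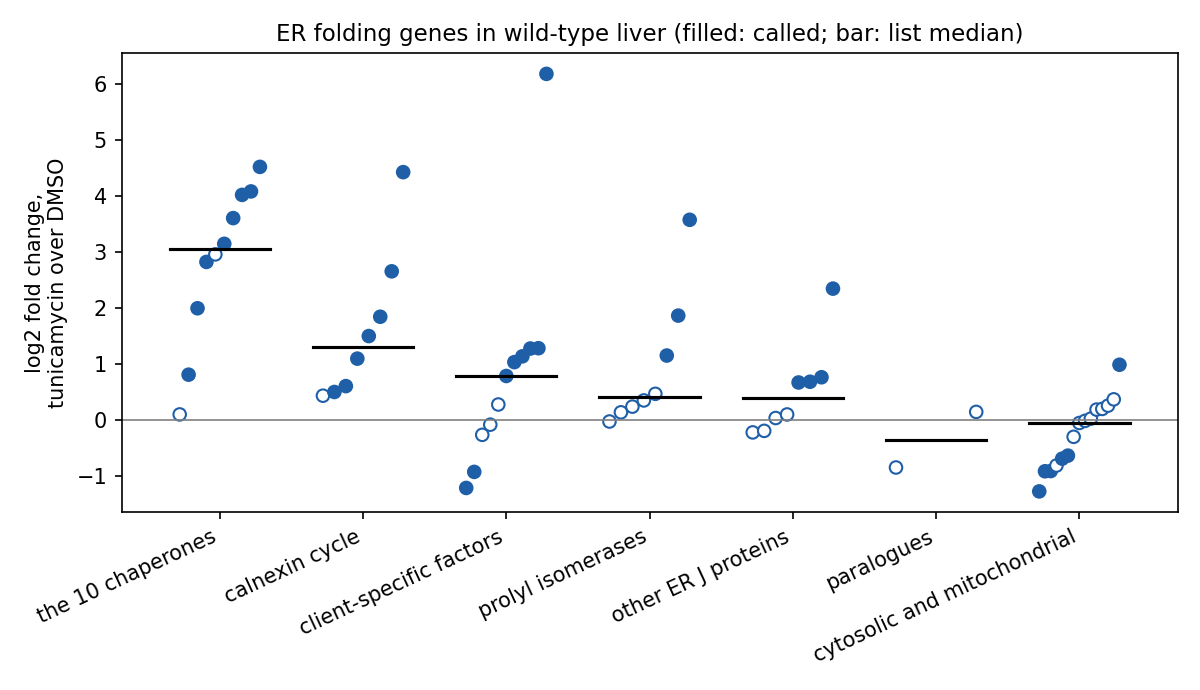
Deposited log2 fold change of tunicamycin over DMSO in wild type for the tested genes of each list; each point is a gene, filled where called, and bars mark list medians. The 10 chaperones have the highest median, 3.05, and the cytosolic and mitochondrial chaperones the lowest but for the pair of tested paralogues. All lists were chosen with earlier results of these data known.

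Loci whose pattern was most like that of the 10 were ranked by the root mean square difference from their median log2 changes in 3 comparisons (0.06 for knockout against wild type with DMSO, 3.05 and 2.58 for tunicamycin in wild type and knockout), over 11393 loci. The 6 closest were Alkbh2 (0.066), Gpr137b-ps (0.067), Ero1lb (0.100), D16Ertd472e (0.100), Atp2a2 (0.103) and Pim2 (0.114). Atp2a2, the calcium pump that fills the ER store, went from 58.9 to 434 FPKM in wild type and from 58.7 to 349 FPKM in the knockout in the authors' deposited table. Ero1lb, an oxidase that recharges ER disulfide isomerases, went from 14.5 to 135 FPKM and from 15.4 to 94.6 FPKM in the same order and source. Of these 6, Pim2 alone was called in knockout against wild type with tunicamycin (deposited log2 -0.60, q 0.0291).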

How the data were processed

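Poly(A) RNA of mouse liver was sequenced as 12 libraries, in 4 groups of 3. The submitters' processing notes name bcl2fastq, TopHat2 2.0.4, Cufflinks and Cuffdiff and the mouse build mm9. The sources used here give neither the annotation nor the filters nor the scaling between libraries. Per the file headers, the deposited values are 1 FPKM per locus and group, and the authors' log2 fold change, test statistic (a score), p-value and q-value for each of 6 comparisons, of which 4 were used. Locus positions are mm9, written 1-based.

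The deposited q-values equal a Benjamini-Hochberg adjustment over all 90828 tests (largest gap 5.29e-07), and the smallest deposited p-value is 5e-05. Calls used a deposited q under 0.05 with status OK, over the whole table. Each SE is the deposited log2 change divided by the test statistic times a scale that matches the deposited p-values (1.73 to 1.74), and 95% intervals are 1.96 SE either way. The responses of both genotypes share no group, so their difference was tested by its SE over 14510 loci, with a two-sided normal p. The procedure was tested on simulated data drawn from the same normal model, with gaps far larger than those of the 10 genes. That trial does not show how gaps of the size seen here would fare. Where several loci bore a symbol, the one with the highest mean FPKM among those bearing no other name was used, and 129 of 129 listed genes matched. Genes were named by a rule: the 10 members, per list up to 3 called genes a direction with the largest change in wild type, and those called by genotype or in the difference test. The members and lists were chosen with earlier results of these data known. Alternatives tried were other q adjustments, thresholds, centring, filters, a pseudocount of 1 FPKM and other errors. Protein sequences were not used here. Software was scipy 1.17.1, numpy 2.4.6, matplotlib 3.10.9, pandas 2.3.3 and Python 3.11.15.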

Additional observations from a re-analysis of the deposited data

How the results depend on the processing

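The counts of called chaperones were 8 and 8 for tunicamycin, 1 for genotype with DMSO, and 0 for genotype with tunicamycin and for the difference between responses, and most alternatives left them as they were. Asking for at least 2-fold as well left 0 called with DMSO, since Dnajb9 fell by 0.89 on the log2 scale, and 7 in each tunicamycin comparison, without Canx. A q threshold of 0.01 left 7 in the knockout, again without Canx. With q adjusted within its comparison alone, Dnajb9 had q 0.0109. All 120 alternative log2 changes (a pseudocount of 1 FPKM, centring on all tested loci or on the cytosolic and mitochondrial chaperones) kept their direction where called and lay within 1 SE of the reported value. The medians used for centring, the largest in size being -0.187 (genotype with DMSO), were smaller than every SE of their comparison. Centring could therefore not move a change past 1 SE. Centred calls of the deposited comparisons kept the deposited q and checked only the direction. Of changes not called, 4 turned direction with centring: Dnajc10 by genotype with DMSO (-0.01 to 0.06 and 0.18), Sil1 with tunicamycin in the knockout (0.05 to -0.07) and Sil1 by genotype with tunicamycin (-0.02 to 0.02).

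Over all loci, calls for genotype with DMSO went from 423 to 105 with q within the comparison, to 170 at a q threshold of 0.01 and to 105 with the 2-fold limit, and for genotype with tunicamycin from 883 to 557, 557 and 534. With the 2-fold limit tunicamycin calls went from 5566 to 3372 in wild type and from 5121 to 3007 in the knockout. Calls for the difference went from 147 to 91 at a threshold of 0.01, to 84 with at least 1 FPKM in every group and to 19 with errors not rescaled. Summing over loci of a symbol was not run, since each of the 10 stood at 1 locus. No paired analysis was possible because the table holds 1 pooled value per group, and for the same reason no library was left out. Depth is unknown.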
